A study of Mus musculus with 27 samples.

Results

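Guanylate-binding proteins (GBPs) and immunity-related GTPases (IRGs) were followed as a set of 10 genes, picked by gene symbol from a table of 55483 mouse genes: Gbp2, Gbp2b, Gbp3, Gbp5, Gbp7, Igtp, Irgm1, Irgm2, Iigp1 and Tgtp1. All 10 symbols were found. The counts came from 27 libraries of RAW264.7 cells, a mouse macrophage line grown from a virus-induced tumour, so all groups share 1 genetic background. The treatments lasted 6 h. They were DMSO (the solvent), lipopolysaccharide (LPS, a bacterial cell wall component, 1 µg/ml) with DMSO, or the same LPS with TM7nox at 10 µM. The group given LPS with DMSO is called LPS below. TM7nox is one of the tanshinone mimics, compounds made to keep the protein HuR from binding RNA. TM7nox without LPS was not analysed here. Each treatment had 4 libraries of total RNA, 4 of RNA recovered with an anti-HuR antibody (ribonucleoprotein immunoprecipitation, RIP) and 1 of RNA recovered with control IgG, which carried replicate number 3. The labels do not say whether replicates were separate cultures, so p-values measure the spread between these libraries, which may be technical.

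GBPs and IRGs are interferon-inducible GTPases of cell-autonomous defence. GBPs assemble on vacuoles that hold microbes and on bacteria in the cytosol, and help the inflammasome caspases to sense LPS there. Among the IRGs, the regulatory members Irgm1, Irgm2 and Igtp guard the cell's own membranes and hold the effector members, such as Iigp1 and Tgtp1, inactive until these load onto a pathogen's vacuole. In macrophages LPS acts through a surface receptor that leads to interferon-β secretion, and interferon then drives these genes through transcription factors that include the IRF family. HuR, encoded by Elavl1, prefers uridine-rich and AU-rich elements and is best known for stabilising short-lived transcripts.

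The promoters are shown first, because all 10 genes rose with LPS. They were searched for the motif cores of interferon-activated factors. RefSeq promoter windows (GRCm38.p6, 250 bases before to 50 after the start site) were matched by symbol for 9 of the 10 genes, in 10 windows. No window was searched for Iigp1, so whether its promoter holds these motif cores was not tested. The core of the interferon-stimulated response element, 2 copies of GAAA with any 2 bases between them, searched on both strands, was found in 9 of the 10 windows and for each of the 9 genes, against 3.44% of 32851 promoters. The gamma-activated site core, TTCNNNGAA, which reads the same on both strands, was found for 5 of the 9 genes (Gbp5, Gbp7, Tgtp1, Igtp and Irgm2), against 8.3% of promoters. A match is a description of the letters and not a measured binding site. The 30 bases around the response element are printed 5′ to 3′ on the gene's strand, with the matched bases in capitals.
Gbp5: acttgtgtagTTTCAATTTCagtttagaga
Gbp7: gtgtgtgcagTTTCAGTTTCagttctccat
Gbp3: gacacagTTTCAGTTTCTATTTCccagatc
Gbp2b: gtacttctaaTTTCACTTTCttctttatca
Gbp2: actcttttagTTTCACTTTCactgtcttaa
Irgm1: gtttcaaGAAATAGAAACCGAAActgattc
Tgtp1: tccaggaatcGAAACTGAAAcctacctgac
Igtp: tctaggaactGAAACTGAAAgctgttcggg
Irgm2: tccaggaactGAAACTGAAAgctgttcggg
The Gbp windows lie at chr3:142496759-142496788 (Gbp5), chr3:142530273-142530302 (Gbp7), chr3:142559992-142560021 (Gbp3), chr3:142594700-142594729 (Gbp2b) and chr3:142620594-142620623 (Gbp2), all on the plus strand. The IRG windows lie at chr11:48871428-48871457 (Irgm1, minus strand), chr11:48992304-48992333 (Tgtp1, minus strand), chr11:58199512-58199541 (Igtp, plus strand) and chr11:58214903-58214932 (Irgm2, plus strand). In the 5 Gbp promoters the element was read on the strand opposite to the gene, and in the 4 IRG promoters on the gene's own strand. Gbp3 and Irgm1 each had 2 overlapping matches. The whole windows of Igtp and Irgm2 were identical at 184 of 270 aligned bases (68.1%), and the next most similar pair, Irgm1 and Tgtp1, at 35.5%.

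**Figure D1:**
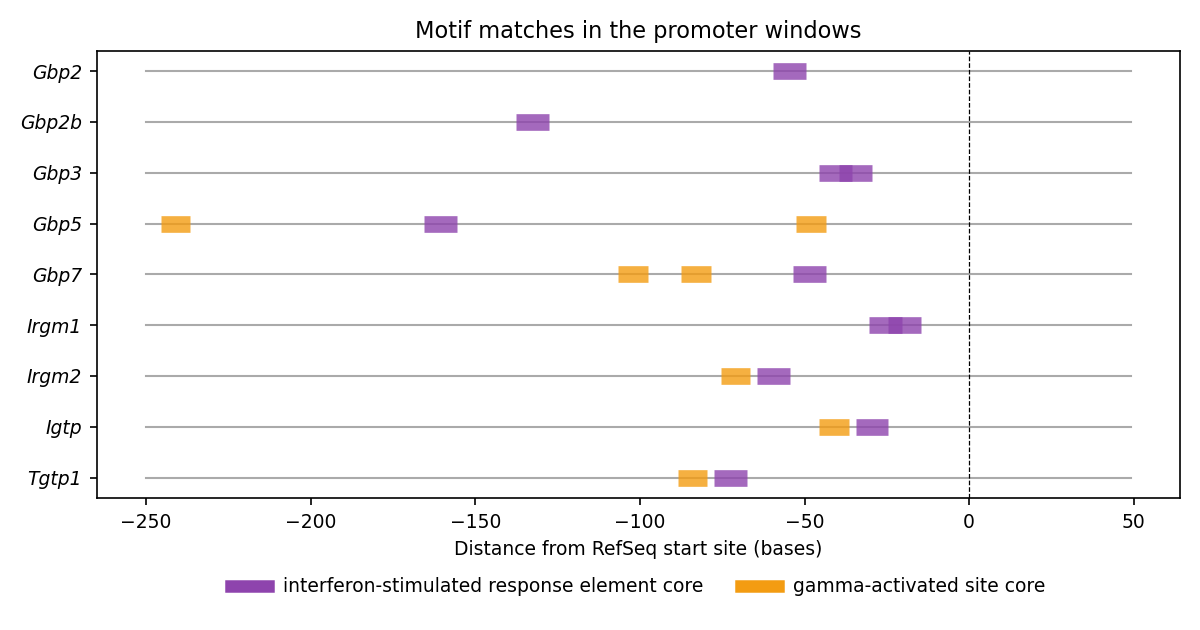
Positions of the 2 motif cores in the promoter window of 9 genes, as distance in bases from the RefSeq start site (dashed line). Each gene has at least 1 response element core upstream of its start site, between 165 and 15 bases before it, and 5 genes also have a gamma-activated site core.

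The 5 Gbp genes form 1 cluster. On GRCm39 (GENCODE M39) they lie within 144 kb of chromosome 3, from 142199739 to 142343779, all on the plus strand. Irgm1 (chromosome 11, 48752795 to 48763164) and Tgtp1 (chromosome 11, 48876154 to 48884999) are on the minus strand. Igtp (chromosome 11, 58089840 to 58098417) and Irgm2 (chromosome 11, 58090444 to 58113615) are on the plus strand and overlap each other. Reads of the overlap could count for either gene or for neither. Iigp1 is on chromosome 18, from 60506680 to 60525706. All 10 are protein-coding. Of the 50-base windows along its main transcript, Tgtp1 shares 92.7% with other genes, mainly its near-identical neighbour Tgtp2, so its counts are uncertain. Igtp shares 12.9% (mainly with Irgm2) and Gbp7 12.8% (mainly with the overlapping gene Gm43802), and the other members between 0.862% and 8.05%.

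Depth was 2728534 to 28285856 counts in total RNA, 19816312 to 41449233 in RIP and 8873091 to 24513902 in IgG. The shallowest library was DMSO total RNA replicate 1 (2728534 counts), in which a count of 0 allows a level of up to 0.642 CPM (counts scaled to a common library size, on the TMM scale of all levels given here), for counting error only. All 7 macrophage markers examined averaged at least 5 CPM in each assay, with a summed level of 2399 to 5775 CPM in total RNA. Of 13 markers of T, B, NK, epithelial and fibroblast cells, none exceeded 0.39 CPM in any total RNA library. Levels below are CPM on 1 TMM scale, which sets the typical gene equal between libraries, and a gene was called where the edgeR quasi-likelihood test gave an adjusted p (FDR, Benjamini-Hochberg over all genes tested) under 0.05. In bulk RNA, fewer expressing cells and less RNA per cell cannot be told apart.

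With LPS all 10 genes rose in total RNA, from 5.93-fold for Irgm1 to 323-fold for Gbp5, and no LPS library overlapped a DMSO library for any of them, where 20.4% of all genes tested lay wholly above DMSO. Their median log2 fold change was 5.74, against -0.04 over the 12369 genes tested, of which 20.2% were called higher. The 5 GBPs rose by 5.24 to 8.33 on the log2 scale, the 3 regulatory IRGs by 2.57 to 3.54, and the effector IRG Iigp1 by 6.56.

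Gbp5, which promotes inflammasome assembly, stood at 0, 1.19, 0.983 and 0.300 CPM in DMSO replicates 1 to 4 and at 263, 325, 223 and 229 CPM with LPS. The log2 fold change was 8.33 (SE 0.44, FDR 5.7e-09). Gbp2b, the mouse gene long called Gbp1, stood at 1.498, 1.54, 0.557 and 0.466 CPM in DMSO and at 265, 291, 195 and 225 CPM with LPS. It rose by 7.98 (SE 0.38, FDR 2.8e-09). Gbp2, a GBP that is recruited to Toxoplasma vacuoles, was at 0 to 0.933 CPM in DMSO and at 139, 186, 135 and 138 CPM with LPS. It rose by 7.73 (SE 0.36, FDR 2.7e-09). Per kilobase these 3 genes had the lowest DMSO levels of the 5 GBPs, with at most 61 counts in any DMSO library. Low counts add counting error, though the SEs of these fold changes (0.36 to 0.44) were below that of Gbp3 (0.49).

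Gbp3 stood at 744, 642, 450.4 and 500.5 CPM with LPS, after 18.8, 8.67, 3.87 and 3.70 CPM in DMSO. Gbp7, a GBP tied to autophagy proteins and the phagocyte oxidase, went from 16.5, 6.86, 4.42 and 4.03 CPM in DMSO to 323, 297, 247 and 245 CPM. Their log2 fold changes were 6.16 (SE 0.49, FDR 2.4e-07) and 5.24 (SE 0.39, FDR 1.4e-07). For both, DMSO replicates 1 and 2 were above replicates 3 and 4, and replicate 1 was the shallow library. Replicates 1 and 2 alone gave 5.69 for Gbp3 and 4.797 for Gbp7, and replicates 3 and 4 alone gave 6.96 and 5.85.

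Among the 10 members, the regulatory IRGs Irgm1 and Irgm2 had the highest mean DMSO levels per kilobase. Irgm1 stood at 87.1, 80.4, 56.6 and 43.3 CPM in DMSO and at 466, 407, 404 and 370 CPM with LPS (log2 fold change 2.57, SE 0.21, FDR 3.0e-07). Irgm2 went from 10.7 to 19.0 CPM in DMSO to 101 to 121 CPM with LPS (2.89, SE 0.21, FDR 9.0e-08). Igtp went from 5.93 to 11.04 CPM to 102 to 108 CPM (3.54, SE 0.22, FDR 2.5e-08). The LPS values of Igtp were the closest together of any member relative to their mean.

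The effector IRGs had the lowest counted levels per kilobase with LPS. For Tgtp1 that level is uncertain, since 92.7% of its 50-base windows are shared with other genes. Iigp1 stood at 0, 0.177, 0.262 and 0.266 CPM in DMSO and at 17.1, 20.95, 22.75 and 25.8 CPM with LPS (log2 fold change 6.56, SE 0.28, FDR 1.4e-09). Tgtp1 had 1 count over the 4 DMSO libraries and 68 over the 4 LPS libraries, a 50.9-fold ratio after scaling with an exact 95% interval of 8.84 to 2041 for counting error. Its fitted log2 fold change was 5.33 (SE 1.13, FDR 0.0016). With replicates 1 and 2 alone it was not tested, and the other 9 genes were called.

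**Figure D2:**
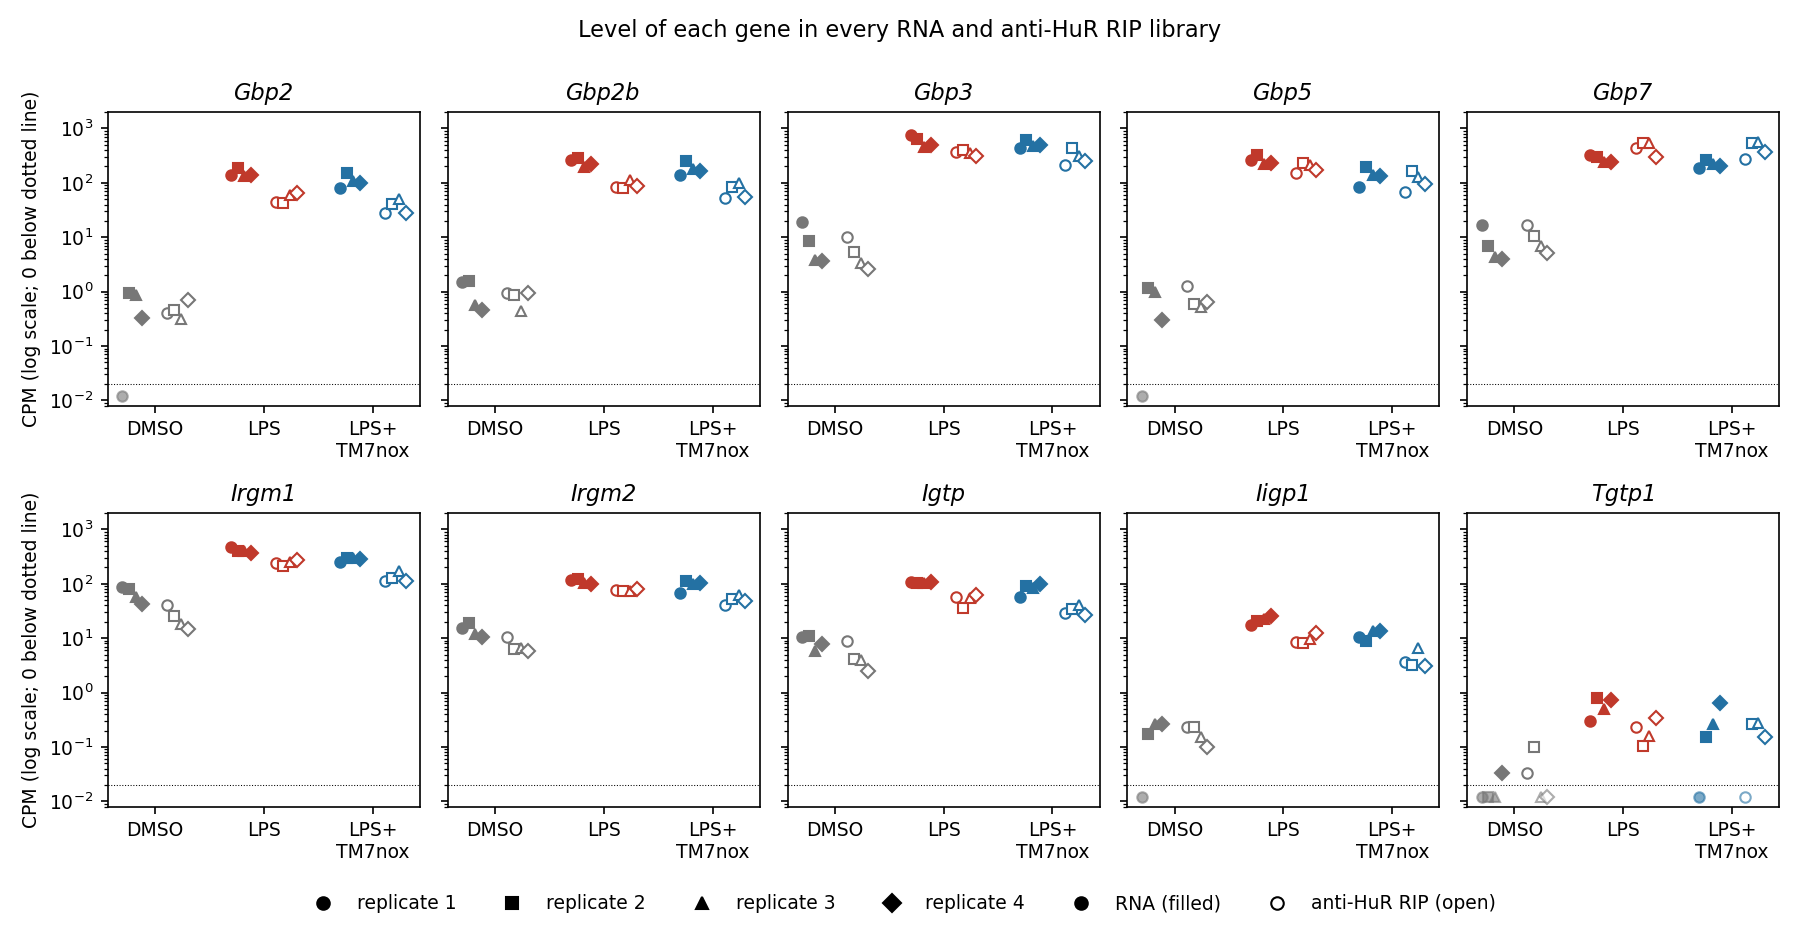
Level of each gene in every total RNA (filled) and anti-HuR RIP (open) library, in CPM on a log axis, by treatment, with 1 symbol shape per replicate and libraries without a count drawn below the dotted line. For all 10 genes the total RNA libraries with LPS lie above those with DMSO, as for Gbp5 at 223 to 325 CPM against 0 to 1.19 CPM.

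Per kilobase of the main transcript, the order of levels with LPS was Gbp3 (212 CPM per kb ± 48.7, SD, n = 4), Irgm1 (197 ± 19.2), Gbp2b (86.2 ± 15.1), Gbp5 (81.7 ± 14.8), Gbp2 (58.9 ± 9.57), Gbp7 (49.1 ± 6.82), Igtp (45.9 ± 1.55), Irgm2 (31.4 ± 2.87), Iigp1 (7.13 ± 1.19) and Tgtp1 (0.201 ± 0.078). Neighbours in this order overlapped in range, except Irgm1 with Gbp2b, Igtp with Irgm2, Irgm2 with Iigp1 and Iigp1 with Tgtp1. The place of Tgtp1 rests on its uncertain counts. In DMSO Irgm1 was at 32.1 ± 9.80 CPM per kb, Irgm2 at 4.10 ± 1.08 and Igtp at 3.87 ± 1.07, and the highest GBP was Gbp3 at 3.19 ± 2.58, which overlapped Irgm2 and Igtp in range. Divided by the length of all annotated exons instead, Irgm1 fell from 197 to 64.8 and Gbp5 from 81.7 to 35.7 CPM per kb with LPS, which put Irgm1 below Gbp2b (86.2) and Gbp5 below Gbp2 (58.4) and Gbp7 (46.4), and Igtp (23.0) below Irgm2 (29.3). In DMSO that length put Gbp3 (2.06) above Igtp (1.94).

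With TM7nox added to LPS all 10 genes were called higher than with DMSO. In the fit without a replicate block 1 of them, Iigp1, was called lower than with LPS, and with the block, given below, 4 were. Against DMSO all 10 were higher, by 2.01 (Irgm1) to 7.58 (Gbp2b) on the log2 scale, where 23.7% of genes tested were called higher. Tgtp1 overlapped DMSO, since TM7nox replicate 1 had 0 counts of it. Against LPS, which shares its libraries with the comparison above, all 10 log2 fold changes were below 0, from -0.19 to -1.11. Their median was -0.42, and the median over all genes tested was -0.003. Of all genes tested, 6.40% were called lower and 7.37% higher. The 1 called member is 10% of the set, and 3 members had an unadjusted p under 0.05 (Gbp5, Irgm1 and Iigp1).

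Iigp1 stood at 10.7, 9.04, 13.7 and 13.5 CPM with LPS and TM7nox, below each of the LPS libraries (17.1 to 25.8 CPM). It fell by 0.88 on the log2 scale (SE 0.19, FDR 0.0062), to 54.2% of its LPS level. The fall was present in each of the 4 same-numbered pairs, by 0.68 to 1.21, and the call was kept without any 1 library. Replicates 1 and 2 alone gave -0.95 with an FDR of 0.27.

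Gbp5 stood at 84.8, 199, 137 and 136 CPM with TM7nox, again below all LPS libraries (223 to 325 CPM), with a log2 fold change of -0.91 (SE 0.30, FDR 0.062). Without TM7nox replicate 2 it was -1.13 (FDR 0.034). Irgm1 stood at 249, 296, 299 and 280.4 CPM, below all LPS libraries (370 to 466 CPM), with -0.55 (SE 0.19, FDR 0.077). Igtp was also below its LPS libraries in every TM7nox library, at 57.5, 92.6, 84.5 and 101 CPM against 102 to 108 CPM, with -0.32 (SE 0.19, FDR 0.33). These 4 of 10 members lay wholly below LPS, as did 10.3% of all genes tested. The other 6 members overlapped between the treatments, with log2 fold changes of -0.45 (Gbp2), -0.40 (Gbp2b), -0.34 (Gbp7), -0.19 (Gbp3), -0.19 (Irgm2) and -1.11 (Tgtp1, on 27 against 68 counts).

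With the replicate number as a block, 4 members were called lower, Gbp2 (-0.47, FDR 0.027), Gbp5 (-0.95, FDR 0.0033), Iigp1 (-0.89, FDR 0.00053) and Irgm1 (-0.54, FDR 0.025), beside 12.7% of all genes. For 8 of the 9 members with counts in both libraries, replicate 1 showed the largest fall of the 4 pairs. The exception was Iigp1, the called member, whose fall in replicate 1 (-0.68) was the smallest of its 4 pairs. The 9 members with counts in both libraries were all lower with TM7nox in replicate 1, with a median log2 ratio of -0.78, and the medians of replicates 2, 3 and 4 were -0.25, -0.30 and -0.33. Gbp3 and Irgm2 were at 0.06 and 0.03 in replicates 3 and 4 alone. The part of replicate 1 in the result was not tested beyond these values.

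**Figure D3:**
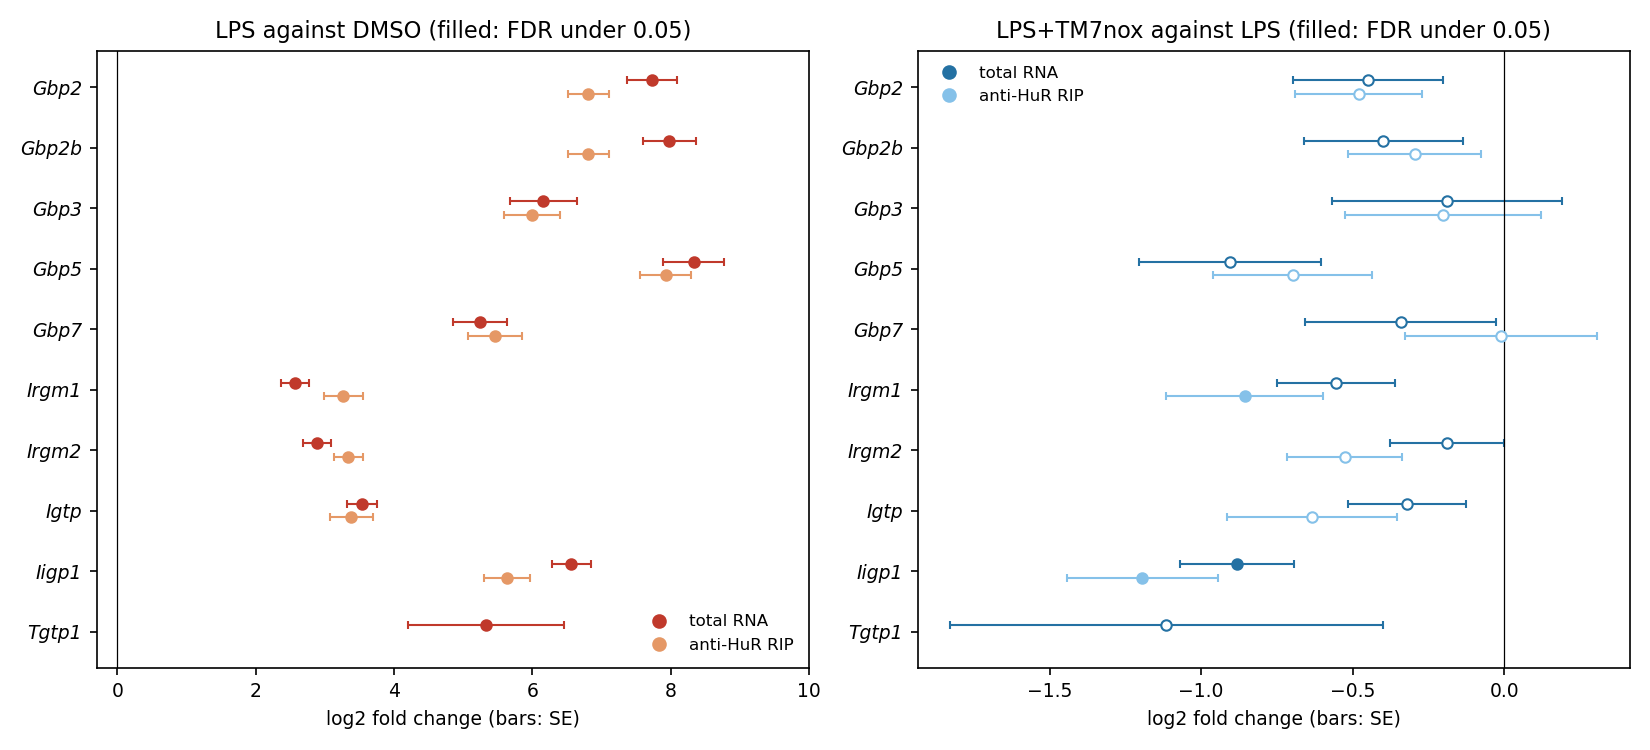
Log2 fold changes with SE from the edgeR fits, in total RNA and in anti-HuR RIP, for LPS against DMSO (left) and LPS with TM7nox against LPS (right), with called genes filled. The LPS values start at 2.57 (Irgm1), and in total RNA with TM7nox Iigp1 at -0.88 is the 1 filled point.

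**Figure D4:**
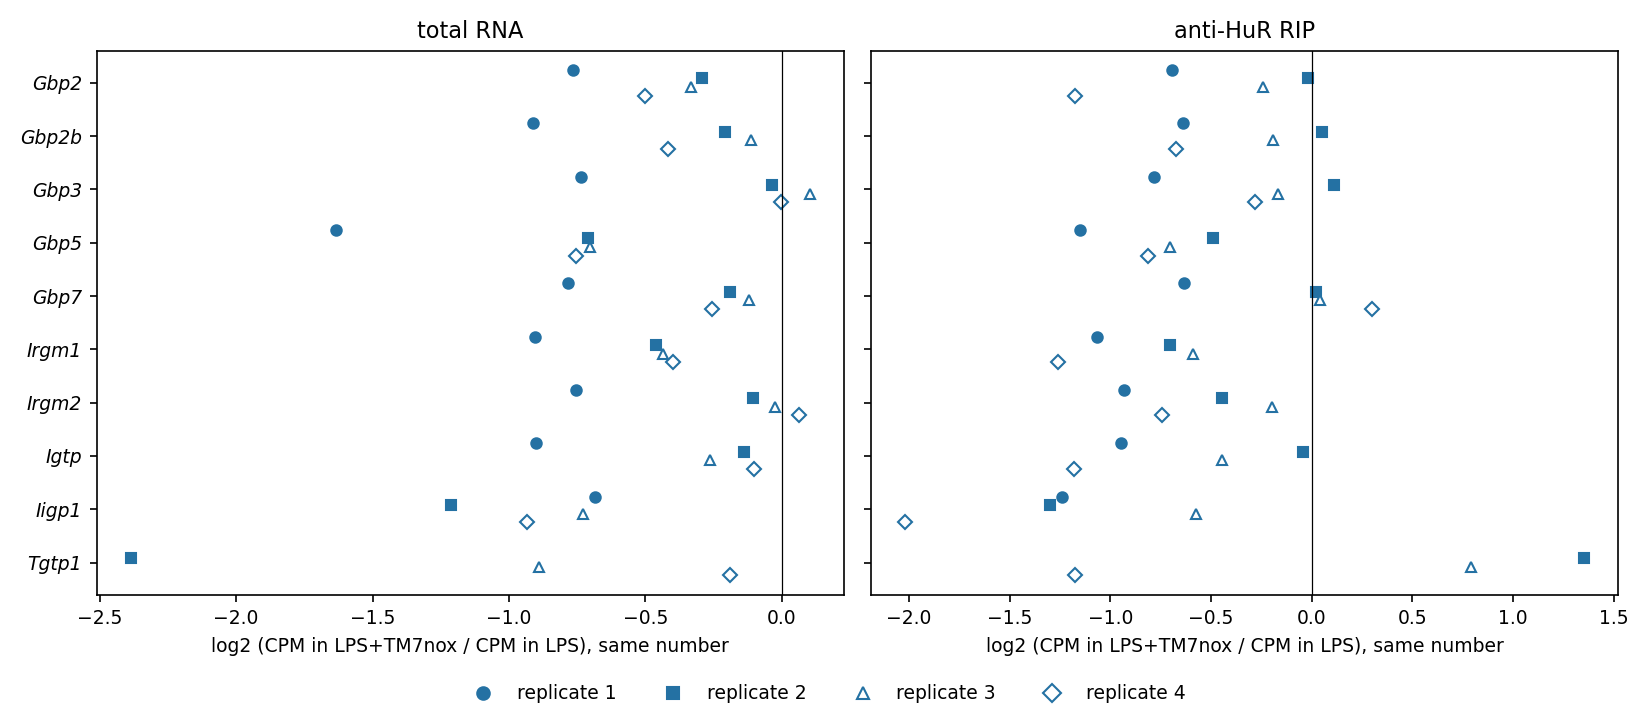
Log2 ratio of CPM in LPS with TM7nox over LPS for each same-numbered pair of libraries, in total RNA and anti-HuR RIP, with 1 symbol shape per replicate. In total RNA, replicate 1 (filled circles) gives the lowest ratio for 8 of the 9 genes that have it, and Gbp5 reaches -1.63 there.

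RNA recovered with anti-HuR also rose with LPS. In RIP 9 members passed the filter on low counts, and all 9 were higher with LPS than with DMSO, by 3.26 (Irgm1) to 7.93 (Gbp5) on the log2 scale, where 23.5% of genes were called higher. Tgtp1 was not tested, at 0 to 0.098 CPM in DMSO and 0.105 to 0.343 CPM with LPS. With LPS and TM7nox, 9 of 9 were higher than with DMSO (25.1% of all genes), by 2.41 to 7.23. These differences include any change in the amount of each RNA in the cells.

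In RIP, Iigp1 and Irgm1 were called lower with TM7nox than with LPS, where 7.61% of genes were called lower. Total RNA of both was lower as well (-0.88 and -0.55). The change in RIP over total RNA was -0.29 for Iigp1 and -0.30 for Irgm1 and was not called (FDR 0.91 for both), so no change in recovery was shown. Iigp1 stood at 3.62, 3.29, 6.55 and 3.03 CPM with TM7nox and at 8.56, 8.08, 9.75 and 12.3 CPM with LPS, with no overlap, and fell by 1.19 (SE 0.25, FDR 0.0041). Irgm1 stood at 114, 128, 171 and 112 CPM with TM7nox and at 239, 209, 257 and 269 CPM with LPS, also with no overlap, and fell by 0.86 (SE 0.26, FDR 0.034). The Iigp1 call was lost in replicates 3 and 4 alone (-1.09, FDR 0.054). The Irgm1 call was lost without LPS replicate 1, 3 or 4 or TM7nox replicate 1, 2 or 4, each left out alone (FDR 0.062 to 0.086, log2 fold change -0.84 to -0.78). Irgm2 did not overlap either, at 41.05 to 63.4 against 72.5 to 80.7 CPM (-0.53, SE 0.19, FDR 0.069). Of all genes tested in RIP, 9.70% lay wholly below LPS. Gbp7 differed least, at 277, 549, 560.2 and 374 CPM against 431, 541, 544 and 303 CPM (-0.01, SE 0.32, FDR 0.99).

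With the replicate block 5 members were called lower in RIP, Gbp2 (-0.48, FDR 0.029), Gbp5 (-0.73, FDR 0.012), Iigp1 (-1.20, FDR 0.00035), Irgm1 (-0.85, FDR 0.0087) and Irgm2 (-0.52, FDR 0.025), beside 17.0% of all genes. Gbp5 was also called without TM7nox replicate 2 (-0.89, FDR 0.045).

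Recovery with anti-HuR was taken as RIP over total RNA within a treatment. In both treatments with LPS it was below that of the typical gene for most members and above it for Gbp7. In DMSO 3 members were called lower and 0 higher, where 33.4% and 37.0% of genes were. With LPS, 6 members were lower in RIP, Gbp2 (-1.48), Gbp2b (-1.39), Iigp1 (-1.14), Igtp (-0.98), Irgm1 (-0.73) and Irgm2 (-0.50), and Gbp7 was higher (0.73, or -0.30 with total-count scaling). So large a share of genes differed between RIP and total RNA (30.8% called lower and 32.9% higher with LPS) that a call alone does not set a member apart. Scaling sets the zero of this measure: the median over all genes was -0.06 with TMM, 0.11 with relative log expression scaling and -1.06 with total counts, and Gbp7 in LPS was 0.80, 0.81 and 0.76 above those medians.

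Gbp7 stood at 431, 541, 544 and 303 CPM in RIP with LPS and at 323, 297, 247 and 245 CPM in total RNA, higher in each of the 4 same-numbered pairs (log2 ratio 0.31 to 1.14). The groups overlapped, since RIP replicate 4 was below total RNA replicate 1. The log2 difference was 0.73 (SE 0.32, FDR 0.048), and the call was lost when any of 7 of the 8 libraries, all but RIP replicate 4, was left out alone (FDR 0.059 to 0.14). With LPS and TM7nox the RIP libraries of Gbp7 (277 to 560.2 CPM) were all above total RNA (188 to 260.1 CPM), a difference of 1.07 (SE 0.32, FDR 0.0048), where 35.2% of genes were called higher and 34.8% lower. With total-count scaling it was 0.06 (FDR 0.87), and in replicates 1 and 2 alone 0.91 (FDR 0.056). In DMSO it was 0.63 (SE 0.34, FDR 0.11). It was called there without total RNA replicate 1 (1.02, FDR 0.0066) or RIP replicate 4 (0.83, FDR 0.035), and in replicates 3 and 4 alone.

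Gbp2 showed the lowest recovery with LPS, at 45.4, 41.9, 59.6 and 63.8 CPM in RIP against 135 to 186 CPM in total RNA, with no overlap (-1.48, SE 0.26, FDR 1.8e-05). Gbp2b did likewise, at 81.0 to 115 CPM against 195 to 291 CPM (-1.39, SE 0.26, FDR 4.9e-05). With LPS and TM7nox those 6 members were called lower too, from -0.83 (Irgm2) to -1.502 (Gbp2). Gbp3 was called with the replicate block in LPS (-0.64, FDR 0.040) and in LPS with TM7nox (-0.68, FDR 0.028), where 34.1% and 37.4% of genes were called lower with the block, and was at -0.67 (FDR 0.10) and -0.68 (FDR 0.093) in the fits without the block. Gbp3 was also called in replicates 3 and 4 alone (-0.53, FDR 0.0081, and -0.70, FDR 0.0010), beside 4090 and 4928 of 14165 genes lower. With total-count scaling it was called too (-1.70 in both, FDR 0.00030 and 0.00029), as was Gbp5 (-1.43 and -1.21, FDR 7.6e-05 and 0.00047). That scaling put the median over all genes at -1.06 and -1.07, with 8134 and 7903 of 14311 genes called lower. A call there does not set a member apart. With no filter Gbp3 was called, at -0.75 and -0.83, beside 4415 and 5265 of 39046 genes lower. Irgm2 with LPS had an FDR of 0.030, which became 0.058 to 0.079 without total RNA replicate 2 or RIP replicate 2 or 3. The Irgm2 call was also lost with relative log expression scaling (-0.33, FDR 0.14), with DESeq2 (-0.33, FDR 0.14) and in replicates 1 and 2 alone (-0.64, FDR 0.10).

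In DMSO the 3 regulatory IRGs were called lower in RIP, where 33.4% of genes were called lower and 37.0% higher. Irgm1 stood at 40.7, 25.2, 17.9 and 14.6 CPM in RIP against 43.3 to 87.1 CPM in total RNA, with no overlap (-1.29, SE 0.24, FDR 3.0e-05). Irgm2 was at 5.81 to 10.4 against 10.7 to 19.0 CPM (-0.84, SE 0.21, FDR 0.00086). Igtp (-0.71, SE 0.27, FDR 0.024) overlapped between assays and lost its call without total RNA replicate 2 or RIP replicate 2 or 4 (FDR 0.061 to 0.11), with relative log expression scaling (-0.57, FDR 0.062) and in replicates 1 and 2 alone (-0.65, FDR 0.15). Gbp3 was called without RIP replicate 1 (-0.89, FDR 0.040) and was at 0.06 without total RNA replicate 1. Tgtp1, with 1 count in total RNA and 4 in RIP in DMSO, was tested and not called in any of the 3 treatments (FDR 0.11 to 0.54), and its fitted differences are not given at these counts.

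Whether recovery changed between treatments was tested as an interaction. None of the 10 members was called for LPS against DMSO (0.0419% of genes called) or for LPS with TM7nox against LPS (0.00699%). At an unadjusted p under 0.05 there were 2 members for LPS, Gbp2b (-1.25, SE 0.44, FDR 0.54) and Gbp2 (-1.002, SE 0.48, FDR 0.68), and 0 for TM7nox. DESeq2 also called 0 members in both. For TM7nox the 9 members other than Tgtp1 had interaction terms between -0.34 (Irgm2) and 0.34 (Gbp7), with SEs of 0.28 to 0.50, so a change of that size in recovery was not detectable here.

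**Figure D5:**
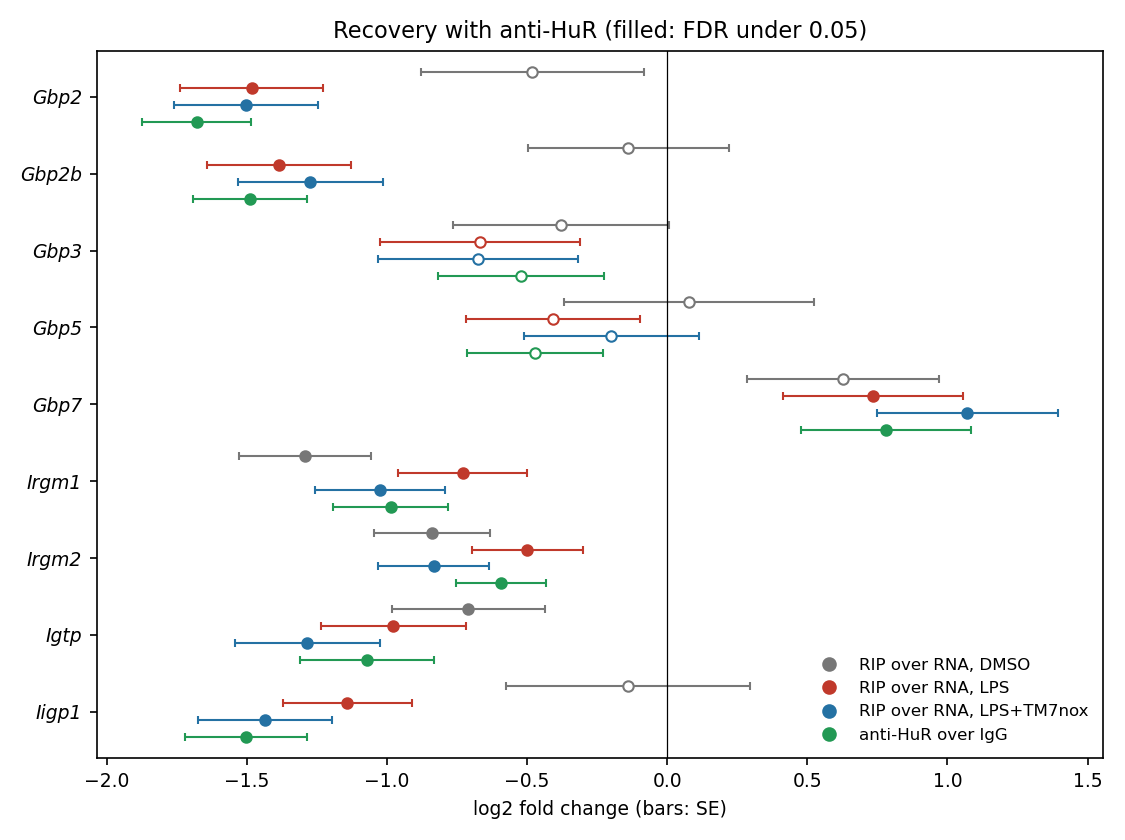
Log2 difference between anti-HuR RIP and total RNA in each treatment, and between anti-HuR and IgG over all treatments, with SE from the edgeR fits and called genes filled, for 9 members. Gbp7 lies at 0.63 to 1.07 and is to the right of 0 in all 4 comparisons, which total-count scaling turns to -0.22 in DMSO, -0.30 in LPS and -0.28 against IgG, and moves to 0.06 in LPS with TM7nox.

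Against control IgG, Gbp7 was again the member with higher recovery. Over the 3 treatments together, with treatment as a covariate, 7 of 9 members tested differed between anti-HuR and IgG. Gbp7 was higher with anti-HuR by 0.78 (SE 0.30, FDR 0.029, and -0.28 with total-count scaling), and 6 were lower: Gbp2 (-1.68), Iigp1 (-1.50), Gbp2b (-1.49), Igtp (-1.07), Irgm1 (-0.99) and Irgm2 (-0.59). Of all genes 33.8% were called higher and 34.2% lower. Gbp3 (-0.52, FDR 0.13) and Gbp5 (-0.47, FDR 0.092) did not pass, and both passed without RIP DMSO replicate 1 or the DMSO IgG library (FDR 0.017 to 0.048). In the same-numbered libraries alone (replicate 3, 1 pair per treatment), where 33.6% of all genes were called higher and 35.6% lower, all 9 members were called, Gbp7 higher (0.86) and 8 lower, with Gbp3 at -0.69 (FDR 0.0015) and Gbp5 at -0.50 (FDR 0.0091). The Gbp7 call was lost without the IgG library of DMSO (0.55, FDR 0.18) or of LPS with TM7nox (0.87, FDR 0.058).

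Within replicate number 3, Gbp7 was higher with anti-HuR than with IgG by 0.92 (DMSO), 0.77 (LPS) and 0.92 (LPS with TM7nox) on the log2 scale. The IgG libraries held the members at levels near total RNA, with median log2 ratios of IgG over same-numbered total RNA of -0.03, 0.26 and 0.24 in DMSO, LPS and LPS with TM7nox. Gbp5, for example, was at 311 CPM in IgG and 223 CPM in total RNA of replicate 3 with LPS. With 1 IgG library per treatment there was no test within a treatment.

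Gbp7, the member with the highest recovery in both treatments with LPS and against IgG, also has the longest 3′ untranslated region. In the GENCODE main transcript that region of Gbp7 is 3575 bases long, with 7 ATTTA and 31 TTTTT matches on the transcript strand (overlapping matches counted). In the other 9 members it is 315 (Igtp) to 2117 (Irgm2) bases long with 0 to 5 ATTTA and 1 to 5 TTTTT. Over 20417 coding genes the median length was 1118 bases, 68.6% held an ATTTA and the median number was 2. The U share of Gbp7 was 28.6%, the lowest of the 10 members (28.6 to 32.0%), and the median over coding genes was 29.3%. The 4 members with no ATTTA (Gbp2b, Gbp2, Irgm1 and Igtp) were all among the 6 called lower in RIP with LPS, as were Irgm2 with 2 and Iigp1 with 5. Gbp3 and Gbp5, with 2 each, and Tgtp1, with 1, were not called. With 10 members and a motif count that grows with length, this is a description only.

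Other genes of the 2 families also rose with LPS. Of 15 further family genes 11 passed the filter, 10 rose with LPS (20.2% of all genes did) and 1 (Gbp8, 0.65, FDR 0.40) was not called, with a median of 4.58. With TM7nox 3 of the 11 fell against LPS, where 6.40% of all genes did: Tgtp2 (-1.33, SE 0.26, FDR 0.0032), Ifi47 (-1.06, SE 0.24, FDR 0.0097) and Gm12250 (-1.01, SE 0.29, FDR 0.035). The Gm12250 call was lost when any of 7 of the 8 libraries, all but LPS replicate 4, was left out alone (FDR 0.053 to 0.11). Tgtp2 shares sequence with Tgtp1, so its counts are uncertain too. Gbp8 was at 1.46 (FDR 0.080), on 112 counts with TM7nox against 47 with LPS, and was called higher with the replicate block (1.49, FDR 0.034) and with DESeq2 (1.45, FDR 0.044). The median of the 11 was -0.25. For RIP over total RNA with LPS, 8 of 12 further family genes tested were called lower and 1 higher, where 30.8% and 32.9% of all genes were. Against IgG 9 of 12 were called lower and 0 higher, where 34.2% and 33.8% of all genes were.

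Of 15 genes of interferon signalling 14 were tested, and 10 rose and 1 (Ifngr1) fell with LPS, where 20.2% of all genes tested were called higher and 21.7% lower. With TM7nox 3 were called lower against LPS and 0 higher, where the shares of all genes were 6.40% and 7.37%. Ifnb1, which encodes interferon-β, stood at 3.34 to 11.6 CPM with LPS against 0 to 0.076 CPM in DMSO and rose by 7.30 (SE 1.10, FDR 0.00010). With TM7nox it spread from 0.146 to 7.19 CPM (-1.09, SE 0.66, FDR 0.33, and with the replicate block -1.48, FDR 0.020). Irf8 rose with LPS by 2.12 (SE 0.41, FDR 0.00086) and Irf9 by 0.84 (SE 0.14, FDR 0.00029), and with TM7nox they were at -0.76 and 0.22 against LPS (FDR 0.25 and 0.37). Irf8 was called with the replicate block (-0.68, FDR 0.025). Irf1, a transcription factor of GBP promoters, rose with LPS by 2.01 (SE 0.26, FDR 2.7e-05) and fell with TM7nox by 0.77 (SE 0.24, FDR 0.048). The other 2 called lower with TM7nox were Ifngr2 (-0.62, FDR 0.04997) and the feedback inhibitor Socs1 (-1.28, FDR 0.044). Each of these 3 calls was lost without any 1 of 6 of the 8 libraries (FDR 0.052 to 0.14). They were kept without LPS replicate 3 and, for Irf1, TM7nox replicate 2 or, for Ifngr2 and Socs1, LPS replicate 4. With the replicate block 7 of the 14 genes were called lower, where 12.7% of all genes were.

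Of 19 inflammasome, autophagy-conjugation and prenyltransferase genes that act with GBPs and IRGs, 10 rose with LPS and none fell, where 20.2% of all genes were called higher and 21.7% lower, and with total-count scaling 7 rose and 2 fell. Casp4, the non-canonical inflammasome caspase, rose by 3.86 (SE 0.23, FDR 1.7e-08), Gsdmd, the pore-forming substrate, by 1.33 (SE 0.13, FDR 2.4e-06) and Aim2, a DNA sensor, by 1.44 (SE 0.13, FDR 7.7e-07). Fntb, a subunit of the farnesyltransferase that lipidates some GBPs, was at -0.30 (SE 0.23, FDR 0.33). With TM7nox, where 7.37% of all genes were called higher and 6.40% lower, 4 rose (Sqstm1, 2.59, Gabarapl1, 1.22, Atg12, 0.97, and Map1lc3b, 0.55) and 4 fell (Gsdmd, -0.51, Nlrp3, -0.52, Atg16l1, -0.47, and Pycard, which had 42 counts with LPS and 0 with TM7nox). Casp4 was at 0.40 (FDR 0.22, and 0.41, FDR 0.012, with the replicate block), Aim2 at -0.08 (FDR 0.75) and Fntb at -0.06 (FDR 0.90). Leaving out 1 library ended the calls of Nlrp3 (any but LPS replicate 2 or TM7nox replicate 1, FDR 0.053 to 0.095), Map1lc3b (LPS replicate 1 or 2 or TM7nox replicate 3 or 4, FDR 0.055 to 0.070) and Gsdmd (LPS replicate 4, FDR 0.060).

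Among genes that are neither members nor on the list of further family genes, the 5 whose log2 CPM followed the members' mean most closely over the 12 total RNA libraries were Gm8995 (r = 0.997), Smim3 (0.996), Evi2a (0.996), Ehd1 (0.995) and Cxcl10 (0.995), out of 8496 genes with a mean of at least 5 CPM. These correlations share the 3 treatments and describe the pattern only. Gm8995 has the name Gvin4 in GENCODE M39, where it is listed as a transcribed pseudogene. Gvin1, which shares that name stem, is on the list of further family genes. Gm8995 averaged 59.7 CPM in DMSO, 667 with LPS and 489 with LPS and TM7nox. Cxcl10, an interferon-inducible chemokine, averaged 7.18, 571 and 242 CPM.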

How the data were processed

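The authors deposited unnormalized read counts per gene for 27 libraries in 1 table. Per the labels' protocols, the SMART-Seq Stranded kit was used. The submitters' processing notes name GRCm39, FastQC 0.11.9, STAR, HTSeq and DESeq2; the strand setting of the counting and the annotation release are not stated in these sources. All 27 value columns were mapped to a sample. Depth was 2728534 to 41449233 counts, and reads carry no stated molecular identifiers, so intervals and floors cover counting error only.

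Counts were tested with edgeR 4.0.16 (R 4.3.3, quasi-likelihood F test, two-sided, TMM scaling, filterByExpr with a minimum count of 10, Benjamini-Hochberg adjustment over all genes tested, called at an FDR under 0.05). Total RNA (12 libraries) and RIP (12) each had a fit, RIP over RNA used 1 fit of those 24, and anti-HuR against IgG used 15 libraries with treatment as a covariate. SEs are the log2 fold change over the root of F. The scripts were tested on simulated data. Alternatives were DESeq2 1.42.0, 2 other scalings, no filter, a replicate block, single replicate pairs and leaving out each library.

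The labels number the replicates 1 to 4 in each group. Same-numbered libraries deviated together from their group means in 9 of 9 pairs of groups, with every correlation between 0.14 and 0.51 over 14311 genes, so the numbers were taken to pair the samples. No replicate pair agreed within sampling noise (chi-square per gene 38.0 to 213 over 36 pairs).

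Identifiers matched GENCODE M39 by Ensembl number for 93.2% of genes. Lengths, untranslated regions and shared 50-base windows came from its canonical transcripts. Promoters are from RefSeq. The text names all 10 members, the genes of 3 lists (other family members, interferon signalling, downstream partners) and the 5 genes most alike; Pycard and the list genes with few calls were named after their values were seen. The values of 1 listed gene are not reported here. The members and lists were chosen with earlier results of these data known. The exon-union length was an alternative chosen after seeing the data.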

Additional observations from a re-analysis of the deposited data

Results flagged for a closer look

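Within 4 libraries of a group, 1 library lay far from the other 3 (Dixon's test at the 95% level) in 5 of 60 groups of a member, where chance flags about 1 in 20. Gbp2 stood at 185.8 CPM in LPS total RNA replicate 2, against 134.7 to 139 CPM in the other 3. Iigp1 stood at 6.55 CPM in RIP replicate 3 with LPS and TM7nox, against 3.034 to 3.619 CPM. Gbp2b stood at 0.4365 CPM in DMSO RIP replicate 3, against 0.8849 to 0.9416 CPM, and Gbp5 at 1.278 CPM in DMSO RIP replicate 1, against 0.5301 to 0.6402 CPM. Tgtp1 stood at 0.0333 CPM in DMSO total RNA replicate 4, which is 1 count against 0 in the other 3.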

How the results depend on the processing

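The rise of all 10 members with LPS in total RNA, and of 9 of 9 in RIP, was called under every alternative that tested them. With no filter Tgtp1 was also tested in RIP, and it was not called. Leaving out 1 library moved the number of members called between 1 and 2 for TM7nox against LPS in total RNA and in RIP, 2 and 4 for RIP over RNA in DMSO, 5 and 7 in LPS, 7 and 7 in LPS with TM7nox, and 6 and 9 against IgG, and kept 0 in both interactions. For TM7nox against LPS in total RNA 3 members were called with no filter, 3 with DESeq2, 4 with the replicate block, 0 in replicates 1 and 2 alone and 3 in replicates 3 and 4 alone. In RIP the numbers were 4 with no filter, 5 with the replicate block, 1 and 0 in the replicate pairs. In DMSO 6 members were called for RIP over RNA with total-count scaling.

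Over all genes, replicates 1 and 2 alone gave 1668 calls for LPS and 2246 for LPS with TM7nox against DMSO in total RNA, and 3392 for LPS in RIP (5190, 5850 and 6090 with all replicates). TM7nox against LPS in total RNA gave 1704 calls, 3091 with the replicate block, 168 and 3489 in replicates 1 and 2 and in 3 and 4 alone, and 1199 to 1605 without 1 library. In RIP it gave 2212, 4577 with the block, 789 and 1070 in the pairs. The LPS interaction gave 6 calls, 27 with total-count scaling, 49 with no filter, 66 with DESeq2, 50 with the block, 0 and 13 in the pairs, and 4 to 11 without 1 library. The TM7nox interaction gave 1, then 2, 5, 3, 2, 0 and 0, and 1 to 3. Apart from the calls given with the results, the replicate block changed no other call of a member. Over the alternatives, 10 to 13 further family genes, 8 to 11 interferon signalling genes and 6 to 12 downstream genes rose with LPS, and 0 to 3, 0 to 7 and 0 to 5 fell with TM7nox.

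Total-count scaling moved the share of calls that were higher from 48.2 to 27.7% for LPS against DMSO in total RNA (LPS with TM7nox against DMSO went from 2926 higher and 2924 lower to 1862 and 4560), 52.6 to 16.8% and 52.1 to 18.2% in RIP, 52.6 to 34.7%, 51.7 to 25.8% and 50.3 to 29.6% for RIP over RNA in DMSO, LPS and LPS with TM7nox, and 49.7 to 25.8% against IgG.

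Among the called values, 2 turned direction, both Gbp7 with total-count scaling and neither called there: RIP over RNA in LPS went to -0.302 and anti-HuR against IgG to -0.279. The other values that turned direction had no call to begin with. Gbp7 for RIP over RNA in DMSO was at -0.215 with total-count scaling. Gbp7 for TM7nox in RIP was at 0.036 with the block, 0.268 in replicates 3 and 4, and -0.148 to 0.168 without 1 library. Gbp3 and Irgm2 for TM7nox in total RNA were at 0.062 and 0.033 in replicates 3 and 4. In DMSO, RIP over RNA was for Gbp2b 0.053 with relative log expression scaling, 0.049 with DESeq2, 0.402 in replicates 3 and 4, and -0.423 to 0.441 without 1 library; for Iigp1 0.064, 0.063 and 0.629 in replicates 1 and 2; for Gbp3 -0.888 to 0.061 without 1 library; for Gbp5 -0.636 with total-count scaling, -0.111 with no filter, -0.091 in replicates 3 and 4, and -0.323 to 0.505 without 1 library. With TM7nox Gbp5 was at 0.044, 0.045 with DESeq2, and -0.399 to 0.054 without 1 library. For TM7nox in total RNA Fntb was at 0.025 in replicates 3 and 4 and at -0.18 to 0.113 without 1 library, and Aim2 at 0.005 in replicates 3 and 4. The cause was not tested, except that total counts shift all genes together. Against IgG, which has replicate 3 only, the pairing was kept by using replicate 3 alone with treatment as a covariate, which called 9 of 9 members and 9025 of 13030 genes.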
